A study of Arabidopsis thaliana with 4 samples.

Results

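The tiles described here are those of plates 52 to 60 of the TA series of a tiling array hybridised with Arabidopsis chromatin. A tile's ID gives its series, its plate, a row letter from A to H and a column number, and tiles are taken in that order. The 9 plates list 864 tiles, and the 850 with a value in every column, of 21707 such tiles on the array, are the members. They were chosen with their levels known, as a stretch in which low and higher plates alternate after the long low stretch of plates 37 to 51. The levels of these plates and the steps inside them are therefore a description. Where counts of calls from a fit across the whole array are given for them, they are given as counts and support nothing.

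The samples were chromatin of 10-day-old Col-0 seedlings of Arabidopsis thaliana, grown without treatment in liquid medium at 22 °C with 16 hours of light a day. DNA immunoprecipitated (IP) with an antibody labelled H3K56Ac was hybridised against input DNA from the same preparation. There were 2 preparations, I and II, each on 2 arrays with the dyes exchanged. The columns of a dye-swap pair were identical at all 21707 tiles, so each pair was counted as 1 sample and n = 2 throughout. No group without the mark, without antibody or with another genotype is compared here.

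Acetylation of lysine 56 of histone H3 (H3K56ac) lies in the core of the nucleosome, near the point where DNA enters and leaves it. It is placed on newly made histone H3 and is also found at actively transcribed genes. Whole seedlings hold many cell types, so a mark on fewer cells and less of the mark per cell cannot be told apart.

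Values are the deposited log ratios of the IP and input channels minus the median of all tiles in the same preparation, so 0 stands for the median tile and says nothing about absence of the mark. Neither the base of the logarithm nor the numerator of the ratio is stated in the labels or the table. A difference of 1 is called 1 log unit, and "high" and "low" refer to the ratio and not to the amount of acetylation. The files used here pair no tile with a gene, a position or a sequence, so no tile is assigned to one.

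The 850 tiles had a median of −0.34 in preparation I and −0.28 in preparation II, or −0.31 ± 0.04 log units (mean ± SD, n = 2). That value lay between −0.71 ± 0.04 in plates 37 to 51 (1351 tiles) and −0.01 ± 0.002 in plates 61 to 99 (3732 tiles). The median of the stretch thus lay below that of the array, while its upper end was well above it. The 95th percentile was 1.09 ± 0.004, against 0.09 ± 0.11 in plates 37 to 51 and 1.26 ± 0.01 in plates 61 to 99. The 5th percentile was −1.01 ± 0.02, nearer to the −1.20 ± 0.08 of plates 37 to 51 than to the −0.64 ± 0.02 of plates 61 to 99. The interquartile range was 0.71 ± 0.07, against 0.45 ± 0.06 before and 0.74 ± 0.01 after. The lower tail thus lay nearer to that of the low stretch and the upper tail nearer to that of the plates that follow.

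Tiles were also set against the array median by limma across all 21707 tiles at a Benjamini-Hochberg adjusted p of 0.05. Of the 850 tiles, 145 (17.1%) were called above the median, where 33.3% of all tiles were. A further 435 (51.2%) were called below it, where 30.9% of all tiles were. In plates 37 to 51 the shares were 3.40% above and 87.4% below, and in plates 61 to 99 they were 30.8% and 26.2%. The plates were picked on this same ratio, so nothing is read from these counts.

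Plate medians went down and up along the stretch. Plate 52 had a median of −0.14 in preparation I and −0.15 in preparation II. Plates 53 to 56 were lower, at −0.45, −0.36, −0.42 and −0.31 in preparation I and at −0.32, −0.26, −0.31 and −0.20 in preparation II. Plate 57 stood at −0.62 and −0.53 and plate 58 at −0.61 and −0.50, the 2 lowest of the 9 in both preparations. Plate 59 returned to −0.33 and −0.20, and plate 60 reached 0.28 and 0.01. Both preparations thus gave a fall after plate 52, a dip at plates 57 and 58 and a climb to plate 60.

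**Figure D1:**
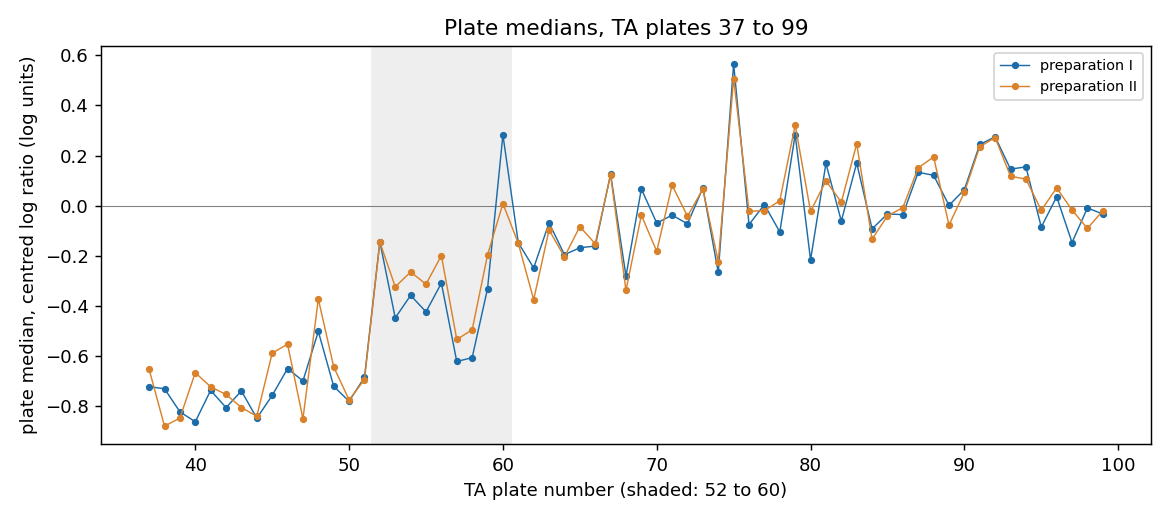
Median centred log ratio (log units) of each TA plate from 37 to 99, one line per preparation, with plates 52 to 60 shaded. The medians go from −0.69 at plate 51 to −0.14 at plate 52, dip to −0.58 at plate 57 and −0.55 at plate 58, and reach 0.15 at plate 60 (means of both preparations).

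Set against the ranges of both neighbouring stretches, the 9 plates fell into 3 kinds in the mean of the preparations. Plates 57 and 58 lay within the range of plates 37 to 51, which ran from −0.84 in plate 44 to −0.44 in plate 48. Plates 52, 54, 56, 59 and 60 lay within the range of plates 61 to 99, from −0.31 in plate 62 to 0.54 in plate 75, plate 54 only just. Plates 53 and 55, at −0.39 and −0.37, lay in neither. The sorting differed in single preparations. In preparation I the lowest plate of 61 to 99 was plate 68 at −0.28, so plates 54, 56 and 59 lay in neither range. In preparation II it was plate 62 at −0.37, so plates 53 and 55 lay within the range of plates 61 to 99. Plates 52, 57, 58 and 60 kept their kind in each preparation. The difference between the highest and lowest plate median was 0.72 log units in the mean of the preparations. It was 0.43 without plate 60, which alone had a median above 0.

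The changes from plate to plate were mostly alike in both preparations. At the lower edge, from plate 51 to plate 52, the median rose by 0.54 in preparation I and by 0.55 in preparation II. From plate 56 to 57 it fell by 0.31 and by 0.33, and from plate 58 to 59 it rose by 0.27 and 0.30. The preparations differed from plate 52 to 53, where the change was −0.30 in preparation I and −0.18 in preparation II. They parted most at the upper end. From plate 59 to 60 the rise was 0.61 in preparation I and 0.20 in preparation II, and from plate 60 to 61 the change was −0.43 and −0.16. The size of the last rise therefore depended on the preparation, while its direction did not.

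The edges of the stretch were less sharp at the level of tiles than at the level of plates. The last row of plate 51 had medians of −0.39 and −0.22 in preparations I and II, higher than the first row of plate 52 at −0.62 and −0.70. The last tile of plate 51, TA51H12, lay at −0.24 and −0.54, and the first of plate 52, TA52A01, at −0.61 and −0.89. At the other end TA60H12 lay at 0.47 and 0.32, and the first tile outside, TA61A01, at 0.84 and 0.51. At neither plate edge did the ratio cross the array median between the neighbouring tiles.

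The ratio also varied inside plates, over rows of 12 wells, as it did in the adjoining plates. Between the lowest and highest row of a plate the difference ran from 0.51 log units in plate 57 to 1.07 in plate 58. The 0.72 between plate medians is an unlike measure, since a row median rests on fewer tiles. Outside the stretch, rows of plate 51 ran from −1.01 in row A to −0.30 in row H (mean of both preparations). Those of plate 61 ran from −0.36 in row F to 0.14 in row A. Plate 53 is an example within the stretch. Its rows A to C had medians of −0.62, −0.65 and −0.63 (mean of both preparations), rows D to F stood at −0.02, −0.02 and 0.12, and rows G and H fell back to −0.66 and −0.69. Each row of the low groups was at −0.55 or lower in both preparations. A median of −0.39 for that plate therefore came from a mixture of rows, and no row of the plate had a median near it.

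Plate 58 had the widest range of rows. Its row G stood at 0.20 in preparation I and 0.10 in preparation II, and the next row, H, at −0.93 and −0.90. Those rows are neighbours. Rows A to D of that plate were all low, between −0.58 and −0.82. In plate 52 row A was the lowest, at −0.62 and −0.70, and row G the highest, at 0.21 and 0.11. Plate 57 was the most even of the low plates, with its highest row G at −0.28 and −0.19 and its lowest row A at −0.82 and −0.68. Plate 60 ran from −0.05 and −0.21 in row F to 0.66 and 0.67 in row D.

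**Figure D2:**
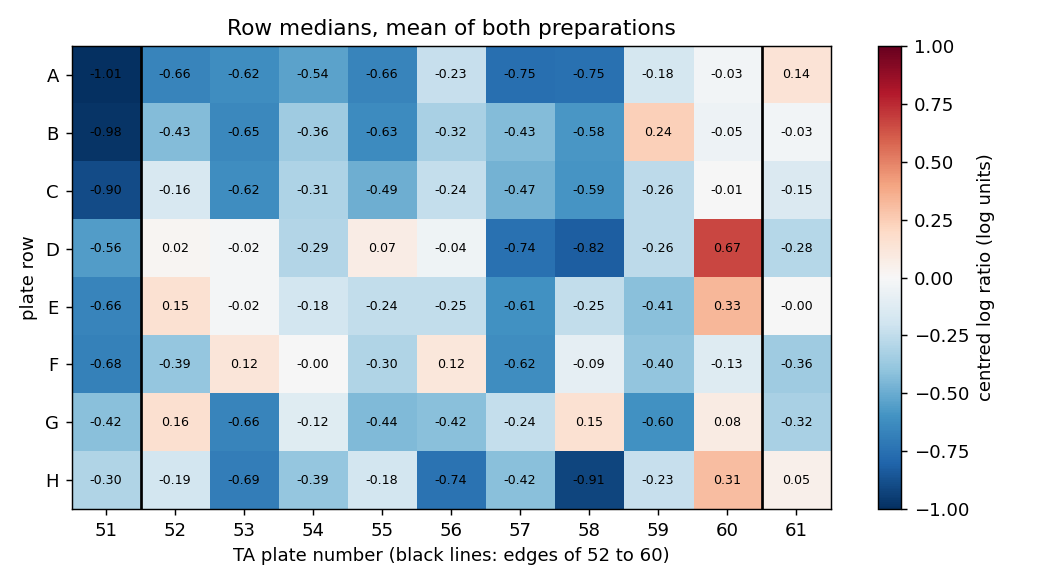
Median centred log ratio (log units, mean of both preparations) of each plate row for TA plates 51 to 61, with rows A to H from top to bottom and colour running from low (blue) to high (red). Plate 53 holds low rows A to C and G to H around rows D to F near 0, and row D of plate 60 is the highest row of the stretch at 0.67.

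Of the 72 rows, 21 (29.2%) had a median of −0.4 or less in both preparations, 10 (13.9%) had one of 0 or more in both, and 41 lay between or differed between preparations. In plates 37 to 51 the low rows were 94 of 113 (83.2%) and the higher rows 2. In plates 61 to 99 the low rows were 13 of 312 (4.17%) and the higher rows 122 (39.1%). The share of low rows and that of higher rows thus each lay between those of the stretches on either side. These row counts are not tested, since the plates were chosen by their levels. Rows of the rest of the array were not counted, so no share over all rows is given.

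At the level of tiles, 279 members (32.8%) lay at −0.4 or less in both preparations, where 17.9% of all tiles did, and 195 (22.9%) at 0 or more in both, where 42.8% of all tiles did. The low tiles formed 98 runs of consecutive wells with a mean length of 2.85 tiles. In plates 37 to 51 there were 155 runs with a mean length of 6.48 tiles and a longest of 52, and in plates 61 to 99 the mean length was 1.64. Over all tiles it was 3.13. The longest run among the members had 15 tiles, from TA57C10 to TA57D12, with medians of −0.80 and −0.71. Runs of 14 tiles went from TA56H12 to TA57B01 and from TA57E07 to TA57F08, so plate 57 held the main part of the 3 longest. Runs of 11 tiles stood at TA53G09 to TA53H07, TA57H09 to TA58A07 and TA58G09 to TA58H07.

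The runs at 0 or more in both preparations numbered 89, with a mean length of 2.19 tiles, against 2.33 in plates 37 to 51, 2.98 in plates 61 to 99 and 3.38 over all tiles. The longest had 11 tiles, TA60C12 to TA60D10, with medians of 0.90 and 0.89. The next had 7 tiles, TA58G01 to TA58G07, with medians of 0.74 and 0.59. It was followed within 2 wells by the run of 11 low tiles that begins at TA58G09. That block held 7 of the 15 tiles of plate 58 at 0 or more in both preparations, and the others lay in rows A, E and F.

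Every plate, the low ones included, held tiles far above the median. The highest was TA60D01, at 2.09 and 2.05 in preparations I and II. TA60H02 (1.96 and 2.02) and TA60F11 (1.85 and 2.06) lay on the same plate. They were followed by TA52G02, at 1.81 and 2.10, and TA55H07, at 1.75 and 2.00. The highest of plate 53 was TA53F09 (1.49 and 1.87), of plate 54 TA54B10 (1.89 and 1.46) and of plate 56 TA56F04 (1.64 and 1.55). In plate 58 it was TA58G05 (1.87 and 1.69), in plate 59 TA59B01 (1.99 and 1.73) and in plate 57 TA57H04, the weakest of the 9 at 1.03 and 1.11. In the order of all 21707 tiles the highest of these, TA60D01, stood at rank 50, so these highs were not the highest of the array.

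In all, 41 members (4.82%) lay at 1 or more in both preparations, where 8.56% of all tiles did. They formed 30 runs, of which 21 were a single tile. The longest had 3 tiles, at TA55G12 to TA55H02 and at TA59A12 to TA59B02. Plate 60 held 10 of these tiles, plate 55 held 8 and plate 57 held 1. A median per plate and the number of high tiles did not go together in every plate. Plate 55, with a median of −0.37, had 8 high tiles, while plate 52, with a median of −0.14, had 5.

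**Figure D3:**
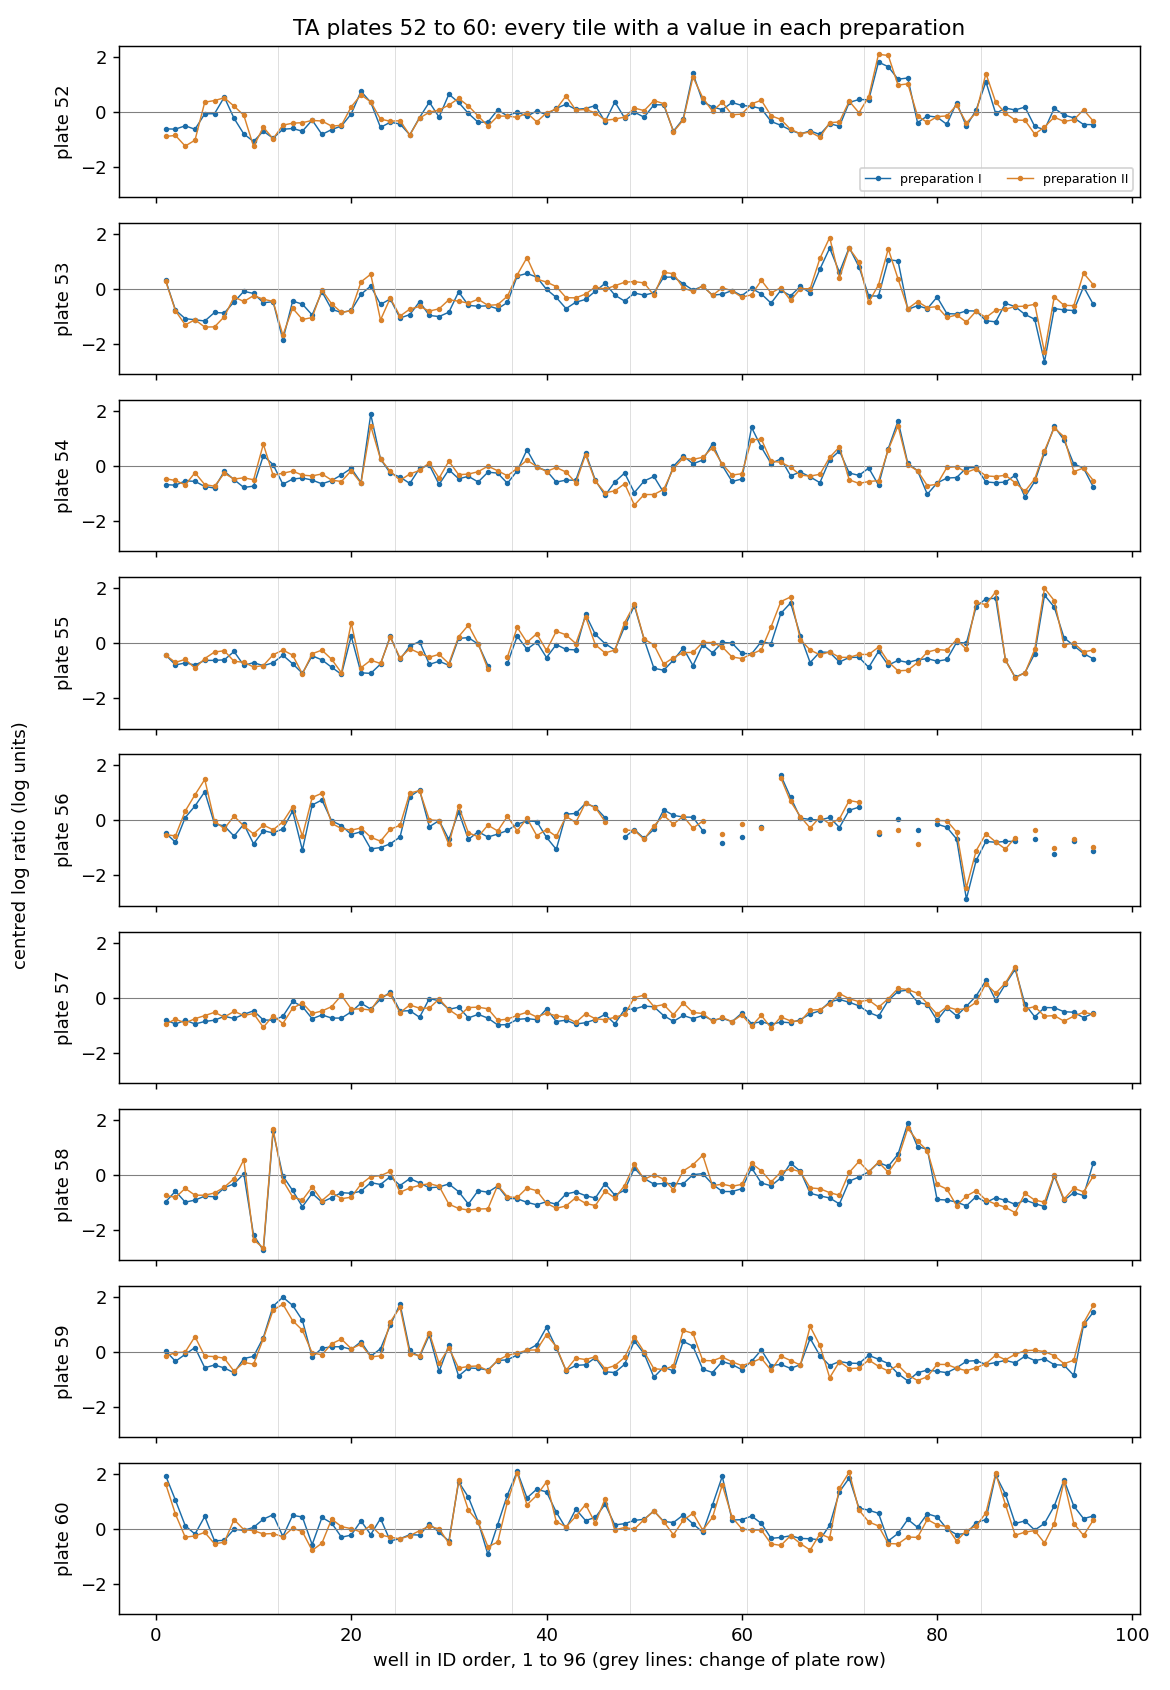
Centred log ratio (log units) of every member tile against its well in ID order, a panel per plate and a line per preparation, with gaps where a tile had no value. Both preparations follow each other in narrow highs of 1 to 3 tiles. Runs at 1 or more in both preparations had a mean length of 1.37 tiles here and 1.35 over all tiles. The 2 neighbouring tiles at −2.28 and −2.70 near the start of plate 58 stand next to a tile at 1.62 (means of both preparations).

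The shape of the highs was examined at local maxima, that is, at tiles of 1 or more in both preparations that exceeded both neighbours and had values in the 4 wells on either side. There were 29 of these among the members. Their median was 1.64 ± 0.001 log units. The tile before stood at 0.61 ± 0.04 and the tile after at 0.49 ± 0.17. At a distance of 2 wells the medians were −0.03 ± 0.02 before and −0.03 ± 0.15 after, and at 4 wells −0.18 ± 0.06 and −0.31 ± 0.03. A high thus came down to the array median within 2 wells on both sides and went below it further out. The tile before was the higher neighbour at 16 of the 29 and the tile after at 13.

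The same measure in plates 61 to 99 gave 206 local highs with a median of 1.42 ± 0.04, neighbours at 0.48 ± 0.02 and 0.49 ± 0.02, and tiles 4 wells away at 0.08 ± 0.03 and 0.06 ± 0.02. In plates 37 to 51 there were 8, with a median of 1.41 ± 0.07 and tiles 4 wells away at −0.33 ± 0.03 and −0.50 ± 0.10. At 2 wells the medians were 0.19 and 0.11 in plates 61 to 99 and −0.05 and −0.08 in plates 37 to 51. The tiles 4 wells away in the mixed stretch thus had values between those of the stretches on either side. At least 1 neighbour was below the array median at 12 of the 29 highs (41.4%), at 72 of the 206 (35.0%), at 6 of the 8 and at 440 of 1362 over the whole array (32.3%). None of these differences was tested.

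**Figure D4:**
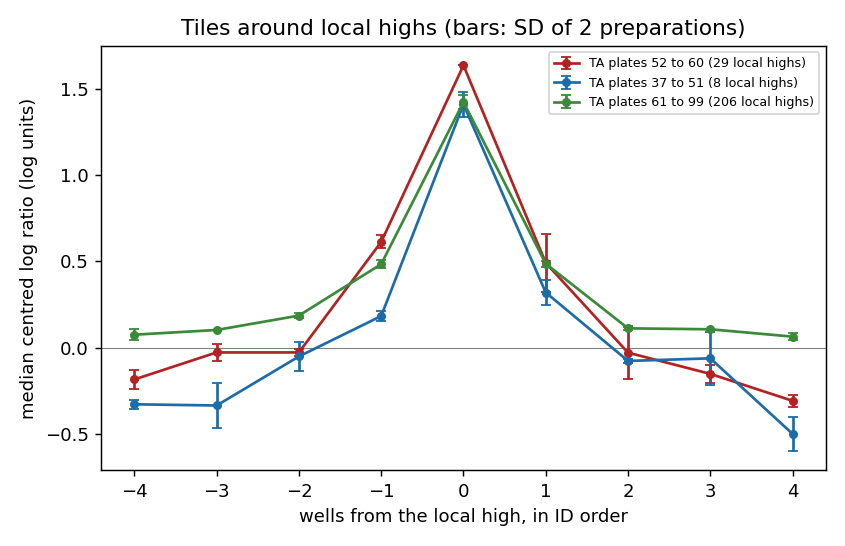
Median centred log ratio (log units) at local highs and at the 4 wells on either side, for TA plates 52 to 60, 37 to 51 and 61 to 99, with bars giving the SD of the 2 preparations. In plates 52 to 60 the median goes from 1.64 at the high to −0.03 at 2 wells on both sides, and in plates 61 to 99 from 1.42 to 0.19 before and 0.11 after.

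At the other end, 5 members lay at −1.5 or less in both preparations, 0.588% of the 850, where 0.0599% of all tiles did. TA58A11 lay at −2.75 and −2.66. TA58A10, its neighbour, lay at −2.20 and −2.37. TA56G11 lay at −2.85 and −2.45. These tiles stood far below the rest of their plates, whose 5th percentiles were −1.17 in plate 58 and −1.02 in plate 56. In the row of TA56G11, the tiles TA56G01, TA56G03, TA56G05 and TA56G07 had no value, and all of these have odd column numbers. Whether this bears on the value of TA56G11 was not tested. TA53H07 lay at −2.65 and −2.29, and TA53B01 at −1.84 and −1.68, both in plate 53 with a 5th percentile of −1.17. Of the 7 tiles on the whole array with a mean of −2 or less (0.0322% of all tiles), 4 were members, and the others were TA06C04, TA06C05 and TA84F04. Only TA58A10 and TA58A11 were next to each other among these 5.

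The very low tiles were not the bottom of a wider low run in every case. TA53H07 closed a run of 11 low tiles, with −0.82 before it and −0.49 after it (means of both preparations). TA56G11 lay between −0.55 and −1.28. TA53B01 lay between −0.45 and −0.57. TA58A10 followed a tile at 0.29, and TA58A11 came just before one at 1.62. The lowest tiles of the other plates were much higher, from −1.24 at TA55H04 to −0.79 at TA60C10, with TA52A10 at −1.16, TA54E01 at −1.19, TA57F03 at −1.04 and TA59G05 at −0.95.

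Steps were taken as the value of a tile minus that of the tile in the well before it. A step was called abrupt where its mean size was 1 log unit or more, its direction was the same in both preparations and limma across all 21567 pairs gave an adjusted p under 0.05. Of the 835 pairs of members, 73 (8.74%) were abrupt, where 9.38% of all pairs were. There were 38 rises, where 4.66% of all pairs were abrupt rises, and 35 falls, where 4.71% were abrupt falls. The smallest abrupt step was 1.004 and the largest step below the limit 0.999. No pair reached 1 log unit in the mean with opposite directions in the preparations. In plates 37 to 51 there were 23 abrupt steps in 1320 pairs (1.74%), and in plates 61 to 99 351 in 3719 (9.44%). The share of abrupt steps in the mixed stretch was thus near that of the array and near that of the plates that follow.

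**Figure D5:**
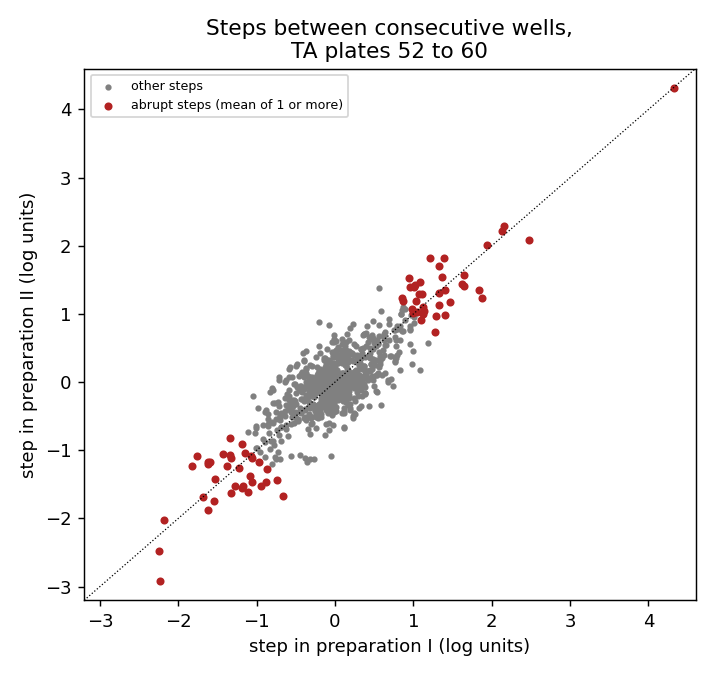
Step from each member tile to the next (log units), preparation I on the horizontal and preparation II on the vertical axis, with abrupt steps in red and the dotted line marking equal steps. The step from TA58A11 to TA58A12 stands alone at the upper right, at 4.32 in both preparations.

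The largest step was the rise from TA58A11 to TA58A12. It went from −2.75 to 1.57 in preparation I and from −2.66 to 1.66 in preparation II, a step of 4.32 in each. It was the largest of all 21567 pairs on the array. The fall from TA58A09 to TA58A10, 2 wells earlier, was the second among the members, at −2.23 and −2.91, and its size differed more between the preparations. TA58A12 was then followed by a fall of 1.62 and 1.87 to TA58B01. Within 5 consecutive wells the ratio thus went from near the median to the second lowest value of the array, to a high tile and back to near the median.

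Row H of plate 55 held 2 of the next steps. The fall from TA55H02 to TA55H03 went from 1.63 to −0.61 in preparation I and from 1.87 to −0.61 in preparation II. Further on, TA55H06 at −0.37 and −0.22 was followed by TA55H07 at 1.75 and 2.00. Between them lay TA55H04 and TA55H05, at −1.24 and −1.07 in the mean of the preparations. Here 2 highs were parted by 4 tiles below the median, and each tile from TA55H02 to TA55H08 lay on the same side of the median in both preparations.

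Other large rises began from tiles of the low level. TA54B09, at −0.59 and −0.62, was followed by TA54B10 at 1.89 and 1.46, a step of 2.48 and 2.08. TA60C06, at −0.44 and −0.52, was followed by TA60C07 at 1.71 and 1.77, a step of 2.15 and 2.28. TA59C01 fell from 1.74 and 1.62 to 0.05 and −0.07 at TA59C02. The 2 remaining steps of the largest 10 led into or out of single very low tiles. From TA56G10 to TA56G11 the step was −2.18 and −2.03, and from TA53H07 to TA53H08 it was 1.94 and 2.01.

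Abrupt steps were unevenly spread over the plates. Plate 60 held 13, plates 53 and 55 held 11 each, plates 54 and 56 held 9 each, plate 59 held 8, plate 58 held 6 and plate 52 held 5. Plate 57, which had the lowest median, held 1. Plates 57 and 58 were close in median, at −0.58 and −0.55, but not in their steps. Of the 6 in plate 58, those into TA58A10, into TA58A12 and into TA58B01 lay close together around its 2 very low tiles. The interquartile range was 0.45 ± 0.04 in plate 57 and 0.70 ± 0.13 in plate 58. Plates 37 to 51 held between 0 and 5 abrupt steps a plate and plates 61 to 99 between 0 and 18, so the count of plate 57 lay within both ranges.

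No abrupt step fell on one of the 8 plate changes within the stretch, 6 fell on 61 changes of row (9.84%) and 67 on 766 pairs within a row (8.75%). Over the whole array 21 of 218 plate changes (9.63%) were abrupt, so 8 plate changes are too few to read anything from a count of 0. The largest change of the plate median within the stretch was 0.41 log units. That is an unlike measure to a step between single tiles, since a plate median rests on many tiles. Of the 73 abrupt steps, 35 had a tile of 1 or more in both preparations on a side, and 8 touched a very low tile. At 37 of the 73 (50.7%) the step led from below to above the array median or back in both preparations. The share was 78.3% of the 23 in plates 37 to 51 and 50.4% of the 351 in plates 61 to 99. Over the whole array it was 48.9% of 2022, so the share among the members was near the background. On the lower side of the 73 steps the median tile stood at −0.37 and −0.30, and on the upper side at 1.07 and 1.05.

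The preparations gave like profiles along the stretch. Across the 850 tiles Pearson's r was 0.910 and Spearman's rho 0.862, and after plate medians were taken off r was 0.904. Within single plates r ran from 0.842 in plate 57 to 0.932 in plate 55. Neighbouring tiles are not independent and all tiles share the same preparations and arrays, so these are descriptions. The SD of the difference between preparations was 0.27 log units over the members, against 0.26 in plates 37 to 51 and in plates 61 to 99. At 122 of the 850 members 1 preparation was above and the other below the median, 27 of them in plate 60 and 24 in plate 52. Over the whole array this held for 3109 of 21707 tiles, a similar share. Steps correlated at 0.845 across the 835 pairs.

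Plate 60 differed from the other plates of the stretch in how the preparations compared. In plates 53 to 59 the median was lower in preparation I by 0.09 to 0.13 log units in each plate. In plate 52 it differed by 0.001, and in plate 60 it was higher in preparation I by 0.27. That was the largest excess of preparation I among the 99 TA plates. Preparation I was the higher at 70 of the 96 tiles of plate 60 (72.9%), and at between 31.6% and 45.8% of the tiles of the other 8 plates. By row, the median of the tile differences in plate 60 was above 0 in all 8 rows, from 0.02 in row C to 0.39 in row H. The difference was not found at each of its highest tiles. TA60D01 and TA60H02 differed little, TA60F11 was higher in preparation II, and TA60A01 (1.94 and 1.64) and TA60E10 (1.91 and 1.60) were higher in preparation I. Plate 60 was the highest of the 9 in each preparation, and the cause of the difference was not tested.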

How the data were processed

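The authors' deposited table holds 1 log ratio per tile and array for 4 arrays (21800 rows). Its log base, direction, normalization and software are not stated in the labels or the table. Left out were 93 rows that hold no value, of which 14 were tiles of TA plates 52 to 60. The identical columns of each dye-swap pair were used once, and the median of all tiles was taken off each preparation (deposited medians −0.737 and −0.925). These medians show that the columns were not centred on the median of these tiles.

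Tiles were tested against 0, and steps between consecutive wells against 0, with limma 3.58.1 in R 4.3.3 (intercept, eBayes, two-sided, Benjamini-Hochberg over all tiles or pairs, threshold 0.05). Spreads are pooled over tiles, and 1 residual degree of freedom per tile remains. For tiles the pooled spread carried 134 degrees of freedom, so a call depended mainly on the mean. The smallest mean size called was 0.281. A tile could be called with its preparations on opposite sides of 0, as TA57B07 was at −0.75 and 0.08. The labels do not say whether the preparations came from separate cultures, so the spread may be technical. The number of arrays limits the precision. Both fits were tested on simulated data. Summaries used Python 3.11.15 with numpy 2.4.6.

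The members, cutoffs and measures were chosen with earlier results of these data known. Named were the 5 highest and 5 lowest tiles, the highest and lowest tile of each plate, the highest and lowest row of each plate, the edge plates and the 10 largest steps. Other rows, runs, the tiles around these and the tiles outside the stretch were named after their values were seen. Tiles around local highs were also chosen after seeing the data. Alternatives changed the zero point, the scaling, the variance model, the step size, the definition of neighbours and the low cutoff, or left out a preparation or plate 60.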

Additional observations from a re-analysis of the deposited data

How the results depend on the processing

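Levels depended on the zero point, since each preparation is moved by 1 constant. The median of all members, −0.31, was −1.14 with values as deposited, −0.056 with centring on the mode and −0.15 with centring on the TA median. Values as deposited lower all tiles by 0.83, centring on the mode raises them by 0.25 and centring on the TA median by 0.16. The number of plates with a median below 0 was 9, 7 and 7, against 8. Tiles called above the median were 38 as deposited and 227 on the mode (145), and those called below 753 and 246 (435). Low tiles were 699 as deposited, 125 on the mode and 175 on the TA median (279). Tiles at 0 or more were 52 as deposited and 327 on the mode (195), and their runs 33 as deposited (89). Steps and differences between plates do not change with the zero point. Abrupt steps were 20 at a size of 1.5 and 123 at 0.75, against 73. Without plate 60, an alternative chosen after seeing the data as was leaving out the very low tiles, the median of all members was −0.36 and the difference between the highest and lowest plate 0.43 (0.72). Without the very low tiles 65 abrupt steps remained in 826 pairs. Leaving out 1 preparation gave a plate difference of 0.54 to 0.90, 71 to 85 abrupt steps by size alone, and medians of all members of −0.34 to −0.28. The limma counts could not be made for 1 preparation, as no residual degrees of freedom remain. In all, 51 recomputed values for the stretch, some given above, stayed within a set limit. For levels and spreads the limit was the spread between preparations, and for counts it was 1.5 times. For the correlation of the preparations it was an interval that takes tiles as independent. The plate difference cannot move with the zero point, so its values there are no check. With n = 2 the mean lies between both preparations, so leaving 1 out is no check of a mean. For single plates and named tiles, 79 recomputed values moved by more than the spread between preparations and 45 did not. No paired analysis was possible because the study has a single group.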

Other observations

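The 14 tiles of the 9 plates without a value were not spread evenly. One was TA55C11, and the other 13 were in plate 56, in rows D to H. All 14 had odd column numbers. Plate 56 therefore had 69 pairs of consecutive wells with a value, against 95 in a full plate, and 9 of the 69 were abrupt.

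Neighbouring tiles of the stretch had similar ratios, as did those of the whole array. The correlation of the means of neighbours was 0.592 over 835 pairs, 0.321 at 2 wells (843 pairs) and 0.160 at 5 wells (831 pairs). Over all tiles these correlations were higher, at 0.62, 0.43 and 0.34. With preparation I at a tile set against preparation II at its neighbour the correlation was 0.545 in the stretch and 0.584 over all tiles. At 2 wells the correlation was 0.473 in plates 37 to 51 and 0.264 in plates 61 to 99. These are correlations across tiles that share preparations and arrays, and differences between the stretches were not tested.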
